A study of Mus musculus with 6 samples.

Results

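The cytochrome P450 genes outside cholesterol removal were examined in the retinal RNAseq of 5XFAD mice. Members were all genes in the 6 expression tables whose symbol has the form of a mouse P450 gene (Cyp, a family number, subfamily letters and a gene number), except Cyp46a1, Cyp27a1, Cyp11a1, Cyp7b1 and Cyp39a1, which act on cholesterol or its oxidised forms. This rule gave 51 of the 19401 genes listed in any library, and it used symbols only, not levels. The questions were which P450 genes the control retina expresses and whether they differ after efavirenz (EFV), an anti-HIV drug that induces P450 enzymes in the liver.

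All animals were 9-month-old male 5XFAD mice, an Alzheimer's disease model hemizygous for transgenes of mutant human amyloid precursor protein and mutant human presenilin 1 on the B6SJL background, so both groups carried the transgenes and no mouse without them was compared here. The control group (3 libraries) received the vehicle, and the EFV group (3 libraries) received EFV in drinking water from 3 months of age, at 0.08 mg per kg of body weight according to the labels; the methods of the study give a somewhat higher daily dose for the same treatment. Each library was made from poly-A RNA of a pool of retina plus retinal pigment epithelium (RPE) from 5 to 6 mice, so the unit of replication is the pool and single mice cannot be followed. The libraries held 23455167 to 24590278 counts each.

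P450 enzymes are heme-containing monooxygenases that take electrons from cytochrome P450 reductase in the endoplasmic reticulum, or from ferredoxin in mitochondria, and insert an oxygen atom into lipids, steroids, vitamins or drugs. Families 1 to 3 hold most of the drug-metabolising enzymes of the liver, family 4 hydroxylates fatty acids and eicosanoids, and family 26 clears retinoic acid. In hepatocytes, EFV and similar drugs induce genes of the Cyp2b, Cyp2c and Cyp3a subfamilies through the nuclear receptors CAR (Nr1i3) and PXR (Nr1i2), whereas Cyp1a and Cyp1b genes are targets of the aryl hydrocarbon receptor (Ahr). In the eye, P450 enzymes are known from inherited diseases: human CYP1B1 is mutated in congenital glaucoma and human CYP4V2 in Bietti crystalline dystrophy of the retina.

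Promoters of 42 of the 51 members were found in RefSeq (GRCm38.p6), as windows of 300 bases from 250 before to 50 after an annotated start. The stretches below, of 100 bases before the start or of 30 bases around the match where the stretch lies inside the annotated gene, show the kinds of P450 promoter that the results set side by side. The first group has the GCGTG core of the xenobiotic response element bound by Ahr (capitals; CACGC where it lies on the opposite strand): Cyp1a1 at chr9:57697547-57697576 (plus strand), Cyp1b1 at chr17:79715062-79715161 (minus strand) and Cyp20a1 at chr1:60343200-60343299 (plus strand), in this order.
Cyp1a1: tcagataaggagGCGTGgccaacagacaca
Cyp1b1: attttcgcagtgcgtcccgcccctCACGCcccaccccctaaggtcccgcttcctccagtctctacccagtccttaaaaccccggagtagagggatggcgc
Cyp20a1: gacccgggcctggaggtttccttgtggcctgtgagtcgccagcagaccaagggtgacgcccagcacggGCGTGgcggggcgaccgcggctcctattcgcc

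The second group comprises Cyp2c29 at chr19:39287054-39287083 and Cyp2e1 at chr7:140763719-140763818, liver-type genes with the letters TATAAA before the start (capitals), and Cyp26a1 at chr19:37697770-37697799, in which the capitals mark 2 copies of the half-site AGTTCA, read on the opposite strand and 5 bases apart, the arrangement of a retinoic acid response element. All 3 lie on the plus strand. The TATAAA of Cyp2c29 begins 19 bases before the start and that of Cyp2e1 begins 31 bases before it. The 2 groups are not exclusive: Cyp1a1 of the first group also has TATAAA, 30 bases before its start and outside the stretch shown.
Cyp2c29: ttttttcagtgtTATAAAaactctgtgatg
Cyp2e1: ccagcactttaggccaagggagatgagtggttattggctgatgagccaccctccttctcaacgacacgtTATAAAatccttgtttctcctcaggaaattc
Cyp26a1: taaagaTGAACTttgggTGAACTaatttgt

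Markers of the tissue were checked first. The summed FPKM (fragments per kilobase of transcript, scaled to the size of the library) of 6 rod genes lay between 22970 and 24700 in all libraries. Of the hepatocyte markers, Apoa1 and Tat had values, and their sum was 0.09 to 0.39 FPKM. Control replicate 3 stood apart in lens genes: the summed FPKM of 9 lens markers was 2176 there and 19.7 to 108 in the other 5 libraries. RPE markers (10 genes) summed to 46.2 FPKM in control replicate 2 and to 69.7 to 81.3 in the others. Of the 9 RPE markers tested, 7 had a positive log2 fold change (EFV over control; median 0.33), and Rpe65 (0.58, unadjusted p of edgeR 0.0437, groups not overlapping) and Lrat (0.65, unadjusted p of edgeR 0.0391), both of the visual cycle, passed the unadjusted limits described below, with an adjusted p of 0.999. The same limits called 3.01% of all genes, and the groups did not overlap for 8.14% of all genes. All 8 lens markers tested also passed these limits, lower in EFV. Rpe65 and Lrat are on the study's own list of changed genes, which was chosen on these samples. The part of lens or RPE tissue in the results was not tested beyond the fits given beside them. Because these are bulk samples, fewer cells of a type and less RNA per cell cannot be told apart.

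Control 5XFAD retina expressed 14 of the 51 P450 genes at an FPKM of at least 1 in all 3 libraries. The share of members expressed was 27.5%, beside 65.7% of all genes listed (12751 genes). The 5 most abundant members, Cyp2d22, Cyp4f17, Cyp4f13, Cyp20a1 and Cyp4v3, held 58.7% of the summed FPKM of the members in control, and the 14 expressed genes held 94.7%. Another 4 members, Cyp4f14, Cyp2j13, Cyp26b1 and Cyp2e1, were below this level but reached the minimum for testing, 10 counts in 3 or more libraries. The other 33 members had at most 10 counts in any library. Of these 33, 27 were listed in at least 1 control library and 6 were listed in none. The plot of FPKM by library shows these tiers.

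The summed level of the P450 genes differed between the groups by less than the spread between pools. The summed FPKM of the 51 members was 65.3, 61.2 and 64.2 in the control libraries and 62.3, 62.2 and 64.7 in the EFV libraries. The means were 63.6 ± 2.13 and 63.1 ± 1.43 (SD, n = 3 each), and the ranges of the groups overlapped. The smallest two-sided p that exact permutation of 6 libraries in groups of 3 can give is 0.1. Of the 18 members tested, 7 had a positive and 11 a negative log2 fold change (EFV over control) in the quasi-likelihood test of edgeR, with a median of -0.05, whereas among all 15537 genes tested 7853 were positive and 7684 negative with a median of 0.00.

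No member passed an adjusted p of 0.05 or less, and neither did any of the 15537 genes (0.0%); DESeq2 also gave 0 members and the Poisson model 1, Cyp4f16. The smallest adjusted p was 0.999 among the members and 0.323 among all genes. The study used looser limits, an unadjusted p up to 0.05 together with a small minimum fold change, and at these edgeR called 1 of the 18 members, Cyp4f16, which was lower in EFV. The same limits called 3.01% of all genes, 1.54% lower and 1.47% higher, so 1 of 18 is near the background. Applied to a Poisson model, in which only counting error enters, the limits called 3 members, Cyp4f16, Cyp4x1 and Cyp2j6, beside 14.8% of all genes, and with DESeq2 they called Cyp4f16 alone beside 1.73%. In counts scaled to library size (CPM, by TMM), Cyp4f16 was also the only member whose groups did not overlap, beside 8.14% of all genes (4.18% lower and 3.95% higher in EFV).

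The intervals bound how large a change these libraries allow. For 17 of the 18 tested members the 95% interval lay within a 2-fold change in either direction, and for 12 of 18 within a 1.5-fold change; Cyp2e1, the tested member with the fewest counts, had a wider interval. For the expressed members the median upper bound of the fold change was 1.18, so that a rise above this was outside the interval of the typical expressed P450 gene. These intervals measure the spread between the pools.

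**Figure D1:**
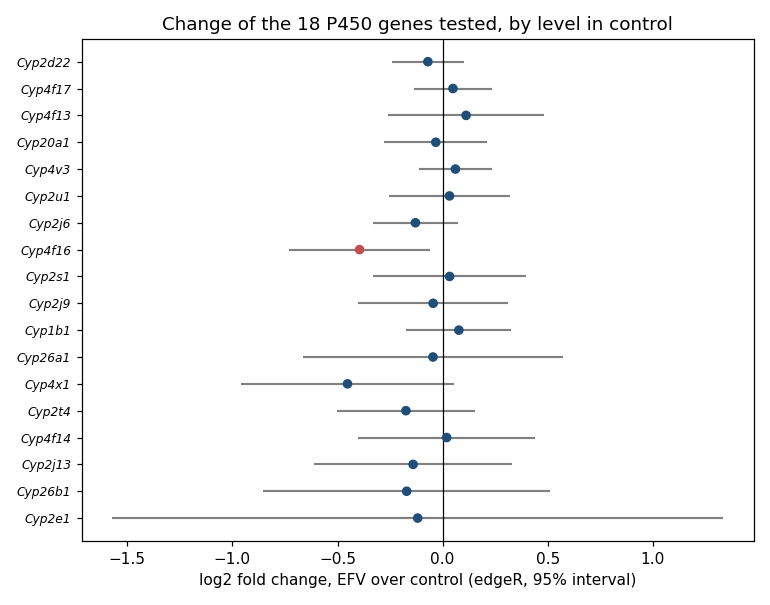
Log2 fold change (EFV over control) of the 18 tested P450 genes with 95% intervals from edgeR, ordered from the highest to the lowest mean FPKM in control. Only the interval of Cyp4f16 (red) leaves out 0, from -0.73 to -0.06, and the interval of Cyp2e1 is the widest, from -1.57 to 1.33.

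The genes that drugs induce in liver through CAR and PXR were at the limit of detection in both groups. The 11 members of the Cyp2b, Cyp2c and Cyp3a subfamilies had 10, 10 and 5 counts in all in the control libraries and 12, 19 and 5 in the EFV libraries. None was expressed or could be tested, and 5 of the 11 were listed in no control library. Cyp3a11, a main drug-oxidising P450 of mouse liver, was listed in control replicate 2 alone, at 0.04 FPKM. Cyp2b13 was likewise listed in control replicate 2 alone, at 0.02, and Cyp2b19 in EFV replicate 1 alone, at 0.02. Cyp2c29, whose promoter is shown above, was listed in EFV replicate 2 alone, at 0.02 FPKM. The highest value of the group was 0.47 FPKM (10 counts) for Cyp2c66 in EFV replicate 2, a gene with 0 counts in EFV replicate 1 and 2 in EFV replicate 3. At these counts no difference between the groups was detectable. RefSeq has 37 more protein-coding genes of this name pattern, 16 of them in these 3 subfamilies, among them Cyp2b10 and Cyp3a13. No control or EFV library listed any of them under a symbol of this pattern. The annotation used for the counts was not given, so a lack of reads cannot be told from a gene missing there.

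The receptors of this response differed in level. Nr1i2, encoding PXR, was listed at 0, 0 and 0.02 FPKM in control and at 0.02, 0 and 0.05 in EFV. Nr1i3, encoding CAR, was at 0.03, 0.14 and 0.07 in control and at 0.10, 0.17 and 0.03 in EFV. Both were too low to test. Ahr was expressed, at 9.63, 9.39 and 10.8 FPKM in control and 11.2, 9.69 and 9.97 in EFV, with a log2 fold change of 0.04 (SE 0.07) and overlapping groups.

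The Ahr targets among the P450 genes fell into different tiers. Cyp1a1, a strongly inducible Ahr target in many tissues, was listed at 0.07 FPKM in control replicate 2 and 0.03 in EFV replicate 2 and in no other library, and Cyp1a2 only in EFV replicate 3, at 0.02. Cyp1b1, which oxidises estrogens and retinoids, was expressed at 2.54, 2.03 and 2.14 FPKM in control and 2.67, 2.25 and 2.24 in EFV. Its log2 fold change was 0.08 (95% interval -0.17 to 0.33), and the groups overlapped. The GCGTG core was present in the promoters of both Cyp1a1 and Cyp1b1 shown above, and in Cyp20a1, an expressed orphan gene. Over both strands it was found in 12 of 48 member windows, beside 32.4% of all 32851 windows. By gene, it was found in 5 of 10 expressed members with a promoter, in 2 of 4 tested below the expression level and in 4 of 28 untested. GCGTG itself contains a CpG, and the median number of CpG dinucleotides per window was 11 in expressed and 2 in untested members. These counts are therefore not a measure of Ahr binding.

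Of the 20 members grouped here as xenobiotic enzymes, which leave out the Cyp2j, Cyp2u, Cyp2r, Cyp2s, Cyp2t and Cyp2ab genes of family 2 described under other roles, Cyp1b1 and Cyp2d22 were expressed. Cyp2d22 belongs to the subfamily of the human drug-metabolising enzyme CYP2D6 and was the most abundant of the 51 genes per length. Its FPKM was 12.9, 12.9 and 13.5 in control and 11.3, 12.7 and 13.9 in EFV. EFV held both the lowest and the highest library, and the log2 fold change was -0.07 (95% interval -0.24 to 0.10). Cyp2e1, which oxidises ethanol and acetone and is abundant in liver, was tested at a low level, 0.41, 0.08 and 0.22 FPKM in control and 0.08, 0.31 and 0.26 in EFV. Its counts ran from 3 to 17, and the fold change was not resolved.

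Cyp2f2, a naphthalene-oxidising enzyme known from the club cells of the lung, was among the untested members. It had 3, 0 and 3 counts in control and 6, 6 and 10 in EFV. Cyp2j8 similarly had 0, 0 and 2 counts in control and 7, 4 and 2 in EFV. Both were called higher at the unadjusted limits when the count minimum was dropped, and both were under the count minimum of 10 in 3 libraries.

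Fatty acid and eicosanoid P450 genes made up the largest share. This class has 17 members, of which 7 were expressed, and its summed FPKM was 34.9 ± 1.94 in control and 35.0 ± 0.75 in EFV (SD, n = 3 each). Cyp4v3, the mouse counterpart of CYP4V2, a fatty acid omega-hydroxylase, was at 4.75, 4.77 and 5.36 FPKM in control and 5.11, 5.30 and 5.28 in EFV. The EFV libraries lay within the upper part of the control range, and the log2 fold change was 0.06 (95% interval -0.11 to 0.24). Cyp2u1, a fatty acid hydroxylase mutated in hereditary spastic paraplegia, was at 4.59, 3.82 and 3.88 in control and 4.73, 4.15 and 3.79 in EFV, with a log2 fold change of 0.03 (SE 0.13). For Cyp2u1, 10.9% of its 4557 different 50-base words in GENCODE transcripts lie antisense in the neighbouring 4930534D22Rik. The gene length given with the counts was 2689 to 2946 bases, so this share need not hold for the counted transcripts. The strand setting of the counting was not given in the sources used here.

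The Cyp2j genes encode arachidonic acid epoxygenases and hydroxylases. Cyp2j6 was at 4.02, 3.97 and 3.73 FPKM in control and 3.84, 3.74 and 3.26 in EFV, with a log2 fold change of -0.13 (SE 0.09). The groups overlapped at 3.73 to 3.84, and the unadjusted p of edgeR was 0.180. Cyp2j9 was at 2.84, 1.99 and 2.46 in control and 2.34, 2.40 and 2.41 in EFV, so that the EFV libraries lay close together inside the control range. Cyp2j13 was tested but not expressed, at 0.48 to 0.53 FPKM in control and 0.47 to 0.57 in EFV.

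The Cyp4f genes hydroxylate leukotrienes and long-chain fatty acids at the omega end, and 4 of the 8 members of this subfamily were tested. Cyp4f17 (chr17:32506192-32530158) was at 7.80, 7.56 and 8.29 FPKM in control and 8.03, 7.23 and 8.85 in EFV, a log2 fold change of 0.05 (SE 0.08). Cyp4f14, a hydroxylase of leukotrienes, was at 0.92, 1.01 and 1.13 in control and 0.98, 1.09 and 1.06 in EFV. Both overlapped between groups.

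Cyp4f16 (Entrez gene 70101, chr17:32536545-32551798) was the only member with an interval that left out 0. Its counts were 202, 180 and 204 in control and 141, 127 and 186 in EFV, and its TMM-scaled CPM values were 8.20, 7.80 and 8.41 in control and 5.71, 5.25 and 7.60 in EFV. EFV replicates 1 and 2 were low, whereas EFV replicate 3 was just under the lowest control library. The log2 fold change was -0.40 (SE 0.15, 95% interval -0.73 to -0.06). The unadjusted p of edgeR was 0.0258, and the adjusted p was 0.999. In FPKM the groups overlapped, at 3.76, 3.48 and 3.85 in control and 2.61, 2.38 and 3.55 in EFV. Cyp4f16 is on the study's own list of changed genes, which was chosen on these samples, so the list is not independent evidence of its direction.

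The call of Cyp4f16 depended on single libraries. It was past the unadjusted limits without EFV replicate 3 (log2 fold change -0.57) and without control replicate 2 (-0.43), but not without EFV replicate 1 (-0.34, p of edgeR 0.0812), EFV replicate 2 (-0.29, p of edgeR 0.0903), control replicate 1 (-0.39, p of edgeR 0.0569) or control replicate 3 (-0.37, p of edgeR 0.0606). With the lens markers as a covariate the log2 fold change was -0.35 (p of edgeR 0.0649), and with the RPE markers it was -0.53 (p of edgeR 0.0187). In GENCODE transcripts, 582 of the 2240 different 50-base words of Cyp4f16 occur in other genes, and 24.3% occur in Cyp4f37. No library listed Cyp4f37 under this symbol, and the assignment of reads between these copies is uncertain.

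Cyp4f13 (chr17:32924688-32947415) had the largest positive log2 fold change of the tested members, 0.11 (95% interval -0.26 to 0.48). Its FPKM was 6.91, 5.39 and 5.69 in control and 7.01, 7.79 and 5.03 in EFV, so that EFV replicates 1 and 2, the low libraries of Cyp4f16, were the highest for Cyp4f13, and EFV replicate 3 was the lowest. In TMM-scaled CPM, the scale of the test, control replicate 1 (16.96) was above EFV replicate 1 (16.32) for Cyp4f13, so this order did not hold there. As a description made after these values were seen, the sum of Cyp4f13 and Cyp4f16 was 10.7, 8.87 and 9.54 FPKM in control and 9.62, 10.2 and 8.58 in EFV. The sum of the 4 tested Cyp4f genes was 18.6 ± 1.03 FPKM in control and 18.5 ± 0.08 in EFV (SD, n = 3 each). In TMM-scaled CPM, Cyp4f13 and Cyp4f16 summed to 25.16, 21.02 and 21.69 in control and 22.03, 23.97 and 19.53 in EFV. On that scale the 4 genes summed to 46.05, 41.61 and 43.88 in control and 43.5, 44.3 and 43.46 in EFV. Of the 50-base words of Cyp4f16 in GENCODE transcripts, 0.179% occur in Cyp4f13. How reads were assigned between Cyp4f16 and Cyp4f13 was not tested.

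**Figure D2:**
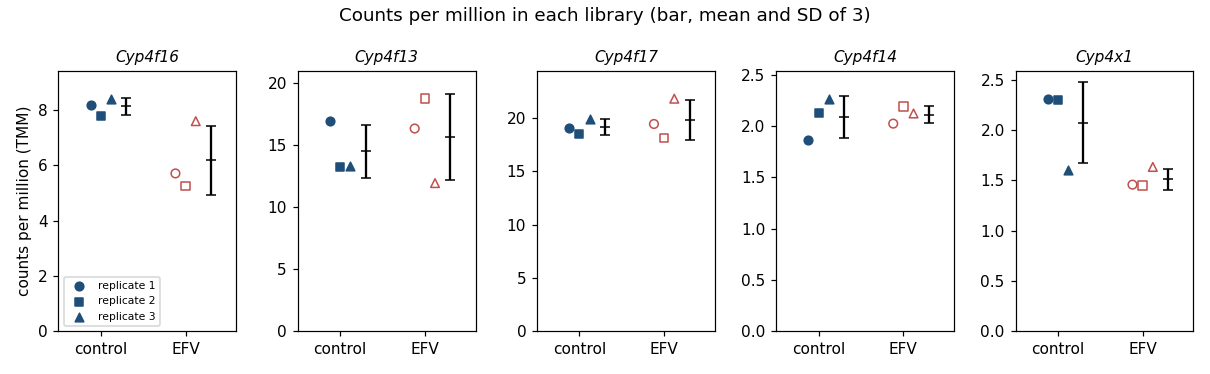
TMM-scaled CPM values (vertical axes, each from 0) of the 4 tested Cyp4f genes and Cyp4x1 in each control (filled blue) and EFV (open red) library, with symbol shape for the replicate number and a black bar for the mean and SD of 3. For Cyp4f16 the 3 EFV libraries lie below the 3 control libraries, and for the other 4 genes the groups overlap.

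Among the 5 orphan or little-studied members, 4 were expressed. Cyp20a1, which has no established substrate, was at 5.07, 6.00 and 5.08 FPKM in control and 5.33, 4.82 and 5.80 in EFV, with a log2 fold change of -0.03 (SE 0.11). Cyp2s1, an extrahepatic enzyme that Ahr ligands can induce, was at 2.38, 2.44 and 2.58 in control and 2.43, 2.05 and 3.18 in EFV. EFV held both extremes of Cyp2s1. Cyp2t4 was at 1.18, 1.13 and 1.03 in control and 0.97, 0.93 and 1.08 in EFV, with a log2 fold change of -0.17 (SE 0.15).

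Cyp4x1 (chr4:115106323-115134079), a brain-expressed P450, had the most negative log2 fold change of the tested members, -0.45 (SE 0.22, 95% interval -0.96 to 0.05), and did not pass the test (unadjusted p of edgeR 0.0736). Its counts were 57, 53 and 39 in control and 36, 35 and 40 in EFV. Control replicate 3, the library with high lens markers, was inside the EFV range, and the other control libraries were above it. Without control replicate 3 the log2 fold change was -0.61 (p of edgeR 0.0255), and with the lens markers as a covariate it was -0.58 (p of edgeR 0.0349), both with an adjusted p of 0.999 or more. In the other 5 fits that left out a library the p of edgeR was 0.0870 to 0.201, and it was 0.209 with the RPE markers as a covariate and 0.174 with DESeq2. Of its 4119 different 50-base words in GENCODE transcripts, 9.74% lie antisense in Cyp4x1os. The gene length given with the counts was 1524 bases, so this share need not hold for the counted transcript.

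Retinoic acid is made from vitamin A by retinaldehyde dehydrogenases and is removed by the Cyp26 enzymes. Cyp26a1 (chr19:37697738-37701536) was the only one of the 3 expressed, at 1.41, 1.04 and 2.14 FPKM in control and 1.51, 1.24 and 1.75 in EFV. The control libraries spanned the EFV libraries, and the log2 fold change was -0.05 (95% interval -0.66 to 0.57). Cyp26b1 was at 0.55, 0.54 and 0.25 in control and 0.40, 0.42 and 0.37 in EFV, and Cyp26c1 had at most 9 counts. The paired half-sites printed for Cyp26a1 were found in 8 of 32851 promoter windows (0.0244%), and Cyp26a1 was the only member with them. The same half-sites 4 bases apart, an arrangement bound by PXR and CAR, were in 4 windows (0.0122%) and in no member window. So rare an exact match was unlikely among the 48 member windows in any case. Its absence there therefore says nothing about whether PXR or CAR bind near the members.

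Of the 12 genes listed around retinoic acid, 11 were tested, with 6 positive and 5 negative log2 fold changes and a median of 0.02. Beside 3.01% of all genes, 1 of the 11 passed the unadjusted limits. This was Stra6, the receptor that takes up retinol in the RPE, at 3.20, 2.43 and 3.37 FPKM in control and 3.17, 4.36 and 4.09 in EFV. The groups overlapped. The log2 fold change was 0.35 (SE 0.15), the unadjusted p of edgeR was 0.0489 and the adjusted p was 0.999. With the RPE markers as a covariate the log2 fold change was 0.12 (p of edgeR 0.452), and control replicate 2, the library with the lowest RPE markers, also held the lowest Stra6. The RPE markers themselves were mostly higher in EFV (7 of the 9 tested), so this covariate also takes up part of any group difference. The amount of RPE and the expression within it cannot be told apart here. Stra6 stayed past the limits without EFV replicate 1 (0.48) and without control replicate 3 (0.44), but not without EFV replicate 2 (0.26), EFV replicate 3 (0.31), control replicate 1 (0.40) or control replicate 2 (0.22). Stra6 is likewise on the study's list of changed genes, chosen on these samples. Dhrs3, which returns retinaldehyde to retinol, and Rdh10, which makes retinaldehyde, had log2 fold changes of 0.05 and 0.04 at 44.3 and 15.2 FPKM in control.

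Vitamin D, steroid and bile acid P450 genes were near or at the limit of detection. Cyp27b1, which makes active vitamin D, was the highest of the vitamin D class, at 0.10, 0.07 and 0.12 FPKM in control and 0.15, 0.09 and 0.02 in EFV. Cyp24a1, which degrades it, reached 0.03, and Cyp2r1, which makes its precursor, reached 0.11. Cyp11b1, of corticosterone synthesis in the adrenal gland, was at 0.02 to 0.04 in control and 0 to 0.04 in EFV. Cyp21a1, of the same pathway, was at most 0.06. Cyp8b1, of bile acid synthesis, was listed in control replicate 3 alone, at 0.02. Among the untested fatty acid hydroxylases, Cyp4b1 was the highest in control, at 0.20, 0.14 and 0.20 FPKM, with 0.22, 0.05 and 0.23 in EFV, and Cyp4a14, a PPAR alpha target in liver, was at 0.03 to 0.08 in control and 0.03 to 0.10 in EFV.

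Genes that serve the P450 enzymes were expressed in all 6 libraries, from 1.68 FPKM at the lowest (Hmox1, a heme-degrading enzyme) to 101 at the highest. Por, the reductase that supplies electrons to all microsomal P450 enzymes, was at 31.9, 30.8 and 33.6 FPKM in control and 31.5, 31.5 and 31.7 in EFV. Its log2 fold change was -0.04 (95% interval -0.13 to 0.06), which leaves little room for a change in either direction. All 14 electron donor and heme genes were tested, 6 with a positive and 8 with a negative log2 fold change and a median of 0.00, and 0 of 14 passed the unadjusted limits of edgeR. Pgrmc1, a heme-binding partner of P450 enzymes, was the highest, at 92.0 to 101 FPKM in control and 97.1 to 100.02 in EFV. Cyb5r1, a cytochrome b5 reductase, had a log2 fold change of 0.00, and Alas1, the first enzyme of heme synthesis and itself a CAR target in liver, of 0.01.

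Of 13 receptors and partners, 10 were tested, 6 with a positive and 4 with a negative log2 fold change and a median of 0.00, and 0 passed the unadjusted limits of edgeR. In CPM the groups did not overlap for Arnt, the partner of Ahr (log2 fold change 0.05), and Hsp90ab1, a chaperone of Ahr (-0.05), nor for the heme-degrading Hmox2 of the electron donor and heme list (-0.14), beside the 8.14% of all genes given above. Rxrb, a partner of CAR and PXR, had a log2 fold change of 0.00. Of 21 other genes that CAR, PXR, Ahr or Nrf2 regulate, 20 had values and 14 were tested, 9 with a positive and 5 with a negative log2 fold change and a median of 0.03, and 0 passed. Gsta4, a glutathione transferase, had a log2 fold change of 0.06. In control replicate 3, the library with high lens markers, Gstm1 was at 29.0 FPKM against 12.3 to 20.2 in the other 5 libraries, and Aldh1a1, a retinaldehyde dehydrogenase on 2 of the lists, at 26.98 against 12.9 to 22.9. Their log2 fold changes were -0.30 and -0.06, and with the lens markers as a covariate 0.05 and 0.15. Of the 47 genes tested over the 4 lists, the Poisson model called 10 at the unadjusted limits, beside 14.8% of all genes, DESeq2 called 1, Stra6, beside 1.73%, and edgeR called 1, also Stra6, beside 3.01%.

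**Figure D3:**
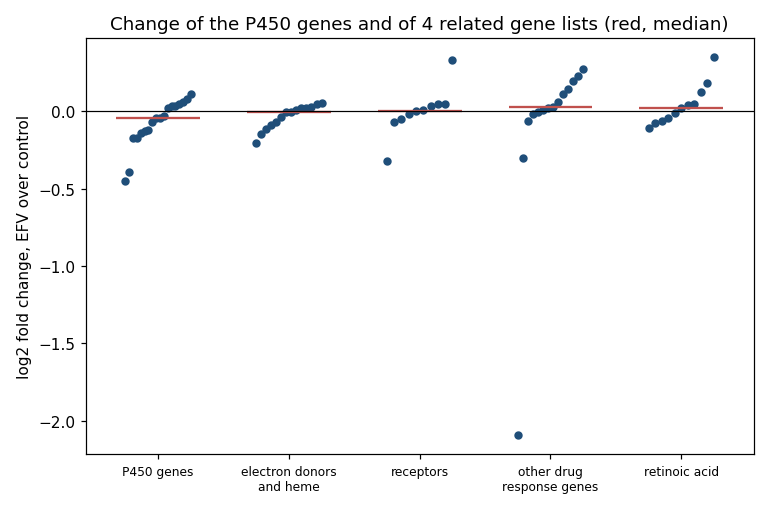
Log2 fold change (EFV over control, edgeR; vertical axis) of each tested gene among the P450 genes and the 4 related lists, sorted within a list, with the median in red. The medians lie between -0.05 and 0.03, and the lowest point is Aldh3a1, at -2.09, which had 13.8 FPKM in control replicate 3 and 0.84 to 1.45 in the other libraries.

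The tiers of expression differed in promoter composition, which the rule did not use. Per window of 300 bases, the median number of CpG dinucleotides was 11 in 10 expressed members, 4 in 4 tested members below the expression level and 2 in 28 untested members, beside 7 in all windows. The member medians used the first window of each gene, whereas all windows can hold several of the same gene. Expressed and unexpressed genes outside the members were not compared. The letters TATAAA were found anywhere in the window, on either strand, in 18 of 48 member windows (37.5%), beside 13.6% of all windows. By gene, this was 1 of the 10 expressed members, Cyp26a1, with the match after the start, 2 of the 4 tested below the expression level and 15 of the 28 untested. From 20 to 40 bases before the start on the strand of the gene, as for a TATA box, they were found in 0 expressed, 1 tested and 6 untested members. The 6 include Cyp1a1 but not Cyp2c29, whose match begins 19 bases before the start. Cyp20a1 and Cyp1b1 had 20 and 16 CpG dinucleotides in the window, and Cyp2c29 had 2. These counts describe the windows, and 4 of the 14 expressed members had no window.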

How the data were processed

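Retinal RNAseq tables of 6 libraries, 3 per group, were used; groups were taken from the labels. The deposited expected counts were estimated by the authors with RSEM 1.2.12 and are not normalized. The deposited FPKM values were made by the authors from the same counts, gene length and library total, and the smallest value listed was 0.01, so an unlisted gene was taken as 0. The submitters' processing notes also name HISAT2 2.0.4, Bowtie2 2.2.5 and mm10. The read filter, annotation and strandedness were not given in the sources used here, and reads shared by near-identical genes are split by RSEM as estimates.

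Expected counts were rounded and fitted with edgeR 4.0.16 (R 4.3.3; TMM, quasi-likelihood, two-sided, group as the only term), with BH adjustment over 15537 genes (minimum of 10 counts in 3 or more libraries); the fit was tested on simulated data. The biological coefficient of variation was 0.0983. Levels between genes were compared in FPKM only. Alternatives were DESeq2 1.42.0, a Poisson model, limma 3.58.1 on log2(FPKM + 0.1) and log2(FPKM + 1), other scalings and filters, marker covariates, a replicate block and leaving out each library. All library pairs differed by more than counting noise (chi-square per degree of freedom 5.47 to 13.7). The study calls the pools biological replicates, and p-values measure the spread between them.

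Members and lists were chosen with earlier results of these data known. Named genes were all members expressed in control, members past the unadjusted p, the 2 largest tested rises and falls, the highest member of each role class, Por, Nr1i2, Nr1i3 and Ahr, and, of each list, genes past the unadjusted p and the 3 most abundant; other genes were named after their values were seen, and 1 gene under this rule is not reported here. Of 121 entries on all lists, 117 had values, with Alas1 and Aldh1a1 each entered on 2 lists. Promoter windows and gene positions were from RefSeq (GRCm38.p6), and shared words of 50 bases were counted in GENCODE M21 transcripts.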

Additional observations from a re-analysis of the deposited data

How the results depend on the processing

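The number of P450 genes past the unadjusted limits was 1 of 18 and became 3 with the Poisson model (1 of them, Cyp4f16, past the adjusted threshold, against 0; 14.8% of all genes), 2 with limma at either pseudocount (Cyp4f16 and Cyp4x1; 3.15% and 3.18% of all genes) and 3 of 51 with no filter (Cyp2f2, Cyp2j8 and Cyp4f16; 2.97% of all genes). It ranged from 0 to 1 when single libraries were left out, beside 2.5% to 3.71% of all genes. The gene past the limits was Cyp4x1, not Cyp4f16, without control replicate 3 (3.41% of all genes) and with the lens markers as a covariate (3.15%). Members with groups that did not overlap numbered 1 with TMM (8.14% of all genes) and 0 with total counts (7.94%). With FPKM in place of counts (chosen after seeing the data) they numbered 0 (7.67%). They numbered 1 to 6 without single libraries, 6 without control replicate 3, where 17.9% of all genes did not overlap (2475 to 2947 of 15537 over the 6 libraries left out). Listed genes past the unadjusted limits numbered 1 (Stra6), 10 with the Poisson model, 2 with the lens covariate, 0 with limma at either pseudocount, 2 with no filter and 1 to 3 without single libraries. The share of all genes called was 3.01% in the main fit and, in the other fits, as given above for the members. The number expressed was 14, and 10 to 15 at other FPKM limits.

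The replicate numbers were not taken as pairs, because the correlations of same-numbered deviations were 0.12, 0.08 and 0.10. Every library correlated best with its own number, a hint from the data and not the design. With the replicate block, 1 member (Cyp4f16, log2 fold change -0.41) and 0 listed genes passed the unadjusted limits, beside 3.31% of all genes.

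Of 458 refits of 27 named genes, 394 kept direction and side, 41 reversed, 9 gained and 14 lost the unadjusted limit. Log2 fold changes turned with the lens covariate to 0.15 (Aldh1a1), 0.0069 (Cyb5r1), 0.26 (Cyp26a1), -0.026 (Cyp2u1) and 0.050 (Gstm1), and with the RPE covariate to 0.063 (Cyp20a1), -0.064 (Cyp2s1), -0.024 (Cyp4f17), -0.017 (Pgrmc1) and -0.029 (Rxrb). They turned with limma at pseudocounts of 0.1 and 1 to 0.0204 and 0.0198 (Cyb5r1) and to 0.017 and 0.0008 (Cyp26a1), and with total counts to 0.0135 (Cyb5r1). Without single libraries the ranges that crossed 0 were -0.028 to 0.096 (Ahr), -0.29 to 0.23 (Aldh1a1), -0.026 to 0.021 (Cyb5r1), -0.0087 to 0.17 (Cyp1b1), -0.092 to 0.060 (Cyp20a1), -0.26 to 0.27 (Cyp26a1), -0.14 to 0.0046 (Cyp2d22), -0.17 to 0.077 (Cyp2j9), -0.15 to 0.16 (Cyp2s1), -0.061 to 0.14 (Cyp2u1), -0.039 to 0.27 (Cyp4f13), -0.026 to 0.11 (Cyp4f17), -0.52 to 0.11 (Gstm1), -0.0054 to 0.052 (Pgrmc1), -0.067 to 0.11 (Rdh10) and -0.035 to 0.038 (Rxrb). The cause was not tested. The 33 untested members had at most 10 counts in any library.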

Other observations

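P450 genes outside the member rule gave further values. Cyp51, which demethylates lanosterol in cholesterol synthesis, was at 16.2, 14.7 and 14.9 FPKM in control and 16.4, 14.9 and 15.3 in EFV, above Cyp2d22 in every library. Cyp46a1, the enzyme that EFV activates, was at 7.27, 6.49 and 6.72 in control and 7.23, 6.91 and 8.20 in EFV. Cyp4a12b, a fatty acid hydroxylase outside the name pattern, was at most 0.12.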
